A study of Mus musculus with 77 samples.

Results

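The change examined here is that of Sertoli-cell-tagged RNA between time 0 and 24h after an injection of retinoic acid (RA). Its members were chosen by label and not by any measured value: the 2 arrays of immunoprecipitated (IP) RNA from Amh-cre testes labelled 24h and the 2 labelled 0, which are 4 of the 77 arrays in the study. The study followed RNA in neonatal mouse testes in which RiboTag, a floxed allele of the ribosomal protein gene Rpl22 that gives an epitope-tagged protein after Cre recombination, was combined with Amh-cre (Sertoli cells), Stra8-cre or Ngn3-cre (germ cells). IP RNA is the polysome-associated RNA that came down with tagged ribosomes, and total RNA came from whole testes.

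Every animal used in these comparisons, the time 0 controls included, was an FVB/N mouse that carried the RiboTag allele and one Cre transgene and had been given WIN,18446 (BDAD), an inhibitor of RA synthesis, for 9 days. The groups were Amh-Cre:RiboTag IP RNA at 0, 12h, 24h and 48h after RA, Amh-Cre:RiboTag total RNA at 0, 12h, 24h and 48h, and Stra8-Cre:RiboTag IP RNA at 0 and 24h, with 2 arrays in each. The animals at time 0 were killed after BDAD and received no RA, so no group shows the passage of 24h without RA. The tag depends on where and when the Amh or Stra8 promoter drives Cre. Nothing in the labels ties the 2 arrays of a group to separate animals. The p-values therefore reflect only how far arrays spread within their groups, estimated over all 77 arrays, and that spread may be technical.

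Sertoli cells are the somatic cells of the seminiferous epithelium that nurse the germ cells. They divide in the fetal and neonatal testis and leave the cell cycle as they mature before puberty, which sets how many germ cells an adult testis can carry. A dividing cell makes the mRNAs of mitosis late in its cycle: cyclins A and B with the kinases Cdk1, Plk1 and the Auroras start division, the anaphase-promoting complex (APC/C) ends it by marking proteins for destruction, and kinetochores, condensin, motors and the cytokinesis machinery move and part the chromosomes. These genes share promoter elements, the CCAAT box bound by NF-Y and the cell cycle genes homology region (CHR, most often TTTGAA) bound by MuvB complexes. RA acts through nuclear receptors and quickly raises its own storage and breakdown enzymes.

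Values are the authors' RMA intensities on a linear scale, in arbitrary units, and differences are in log2 units. A gene was called when its adjusted p (limma, Benjamini-Hochberg over 19938 genes) lay below 0.05 and it differed by 2-fold or more. Array medians lay between 252.6 and 300.5 units over the 77 arrays. The 2 Amh IP arrays at 24h had the lowest medians of the 16 arrays in the 6 planned comparisons (252.6 and 253.9, against 266.8 and 266.4 at time 0) and the widest log2 interquartile ranges (3.31 and 3.35, against 3.16 and 3.18). Quantile normalization, which makes these distributions equal, gave 77 calls between 24h and time 0, 11 higher and 66 lower, in place of 107. The 2 arrays of Amh IP RNA had a median absolute log2 difference of 0.07 at time 0 and 0.08 at 24h. Sertoli markers were high in the Amh IP RNA at both times: Sox9, which specifies Sertoli cells, stood at 8404 and 8068 units at time 0 and at 9142 and 8551 at 24h, and Gata4 at 6467 and 6618 and then 6982 and 6731. The mean log2 intensity of the Sertoli cell list was 11.82 and 11.81 at time 0 and 11.85 and 11.85 at 24h, against 11.35 and 11.34 and then 11.25 and 11.26 in total RNA. RNA of other cells was present at a lower level: the germ cell and piRNA list averaged 8.40 and 8.53 at time 0 and 8.56 and 8.60 at 24h, against 9.90 and 9.98 and then 9.94 and 9.98 in total RNA.

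At 24h, mRNAs of mitosis had fallen in Sertoli-tagged RNA. Of 19938 genes, 107 (0.537%) were called, 17 higher (0.0853%) and 90 lower (0.451%), and 37 of the 90 lower genes belonged to 5 lists of mitotic genes. The lists were chosen with earlier results of these data known, so this count is a description and not a test. Those lists hold 99 genes, of which 95 were measured; 37 fell, 0 rose, and 84 of the 95 had a difference below 0 (median -0.82, against -0.01 over all genes). Ccnb2, the cyclin B2 that partners Cdk1, stood at 4212 and 4032 units at time 0 and at 1355 and 1125 at 24h, a log2 difference of -1.74 ± 0.15 (SE; limma adjusted p = 1.8e-11, n = 2 each). Plk1, the Polo-like kinase of mitotic entry and spindle assembly, stood at 2558 and 2316 units and then at 819.9 and 770, a log2 difference of -1.61 ± 0.26 (adjusted p = 4.7e-05). For both genes the 24h arrays lay well below the time 0 arrays with no overlap. All 90 lower and all 17 higher genes had arrays that did not overlap, as did 31.4% and 29% of all genes in the same directions. In RNA pooled from many cells, fewer dividing Sertoli cells and less of each mRNA on tagged ribosomes per cell cannot be told apart. IP RNA alone does not separate the amount of an mRNA from its share on ribosomes.

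The promoters of the falling mitotic genes are shown because they carry the elements that such genes share. The 250 bases before the start of Ccnb2 (chr9:70421555-70421804, minus strand), Plk1 (chr7:122159185-122159434, plus strand) and Ube2c (chr2:164769679-164769928, plus strand) are from RefSeq on GRCm38.p6, 5′ to 3′ on the gene's strand, with CCAAT and TTTGAA on either strand in capitals (ATTGG and TTCAAA are the same motifs on the opposite strand).
Ccnb2: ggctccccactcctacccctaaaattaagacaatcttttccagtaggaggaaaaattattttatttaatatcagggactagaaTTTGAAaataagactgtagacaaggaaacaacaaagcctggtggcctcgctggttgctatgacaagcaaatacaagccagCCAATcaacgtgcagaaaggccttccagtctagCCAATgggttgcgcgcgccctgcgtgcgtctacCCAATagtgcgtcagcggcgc
Plk1: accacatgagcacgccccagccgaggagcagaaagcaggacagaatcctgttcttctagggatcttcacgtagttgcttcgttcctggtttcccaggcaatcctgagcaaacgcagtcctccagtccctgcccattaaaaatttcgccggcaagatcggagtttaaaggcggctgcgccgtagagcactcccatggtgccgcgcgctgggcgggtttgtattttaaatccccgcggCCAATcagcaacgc
Ube2c: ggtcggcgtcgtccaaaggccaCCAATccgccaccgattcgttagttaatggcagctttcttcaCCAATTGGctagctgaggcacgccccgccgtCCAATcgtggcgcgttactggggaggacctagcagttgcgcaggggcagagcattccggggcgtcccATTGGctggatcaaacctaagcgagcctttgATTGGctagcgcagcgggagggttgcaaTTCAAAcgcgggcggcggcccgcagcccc
Ccnb2 holds 3 CCAAT motifs whose first bases lie 87, 54 and 21 bases before the start. A first TTTGAA lies 167 bases before it and another begins at base 5 after it, outside the printed stretch. Plk1 holds 1 CCAAT, 14 bases before its start, and its TTTGAA begins at base 31 after it. Ube2c, whose product is the APC/C's ubiquitin-conjugating enzyme, holds CCAAT at 6 places, of which 186 and 183 bases before the start overlap on opposite strands, and TTTGAA 29 bases before its start, on the opposite strand.

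Counted over 300-base windows (250 bases before to 50 after each start) and both strands, TTTGAA was found in 30 of 36 windows (83.3%) of the 32 mitotic genes called lower that have a window in the table. Over all 32851 windows it was found in 17.9%. CCAAT was found in 72.2% of the mitotic windows and in 37.4% of all windows, and both motifs together in 61.1% and 6.95%. TTTAAA, a variant of the CHR that is not marked in the printed stretches, was found in 13.9% of the mitotic windows and 13.2% of all windows. Among the other lower genes, 42 of 53 had a window, and TTTGAA was in 33.3% and CCAAT in 62.2% of 45 windows. Of the 18 windows of 14 of the 17 genes called higher, 3 (16.7%) held TTTGAA, 3 (16.7%) held CCAAT and 1 (5.56%) held both. The windows were searched after the calls were known, and a match is a description of the letters and not a bound site.

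Among the mitotic cyclins, kinases and regulators, 6 of 19 measured genes fell and all 19 lay below 0 (median -0.64). Ccna2, the cyclin of S phase and mitotic entry, went from 3309.8 and 2963 units to 1158 and 1043, a log2 difference of -1.51 ± 0.13 (limma adjusted p = 5.29e-12, n = 2 each). Aurkb, the kinase of the chromosomal passenger complex, went from 2335 and 2220.4 units to 777 and 697, a log2 difference of -1.63 ± 0.13. No 24h array of either gene reached the level of its time 0 arrays. Fbxo5, the inhibitor of the APC/C before mitosis, fell by 1.09, and Cdc25c, a phosphatase that activates Cdk1, fell by 1.00. Other members of the list moved less: Cdk1 itself differed by -0.72 (adjusted p = 0.0431, below the 2-fold minimum), Aurka by -0.82, Nek2 by -0.73, and Wee1, the kinase that restrains Cdk1, by -0.11 (adjusted p = 0.791).

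**Figure D1:**
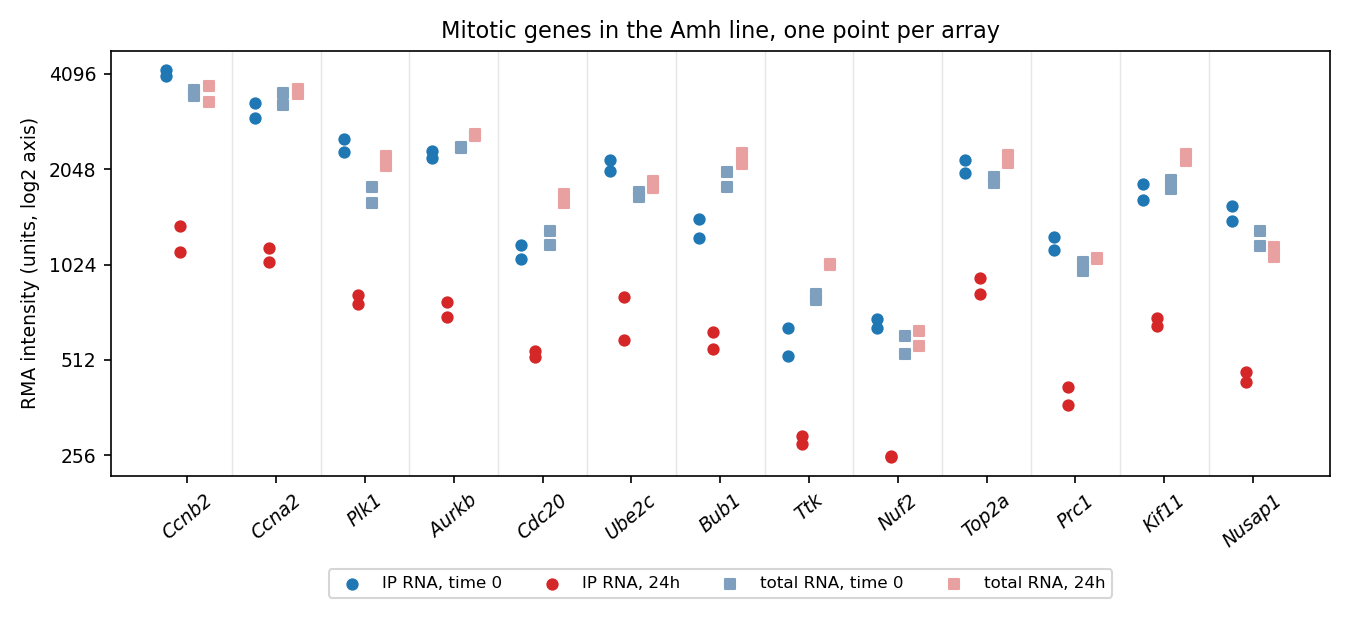
RMA intensity (units, log2 axis) of 13 mitotic genes in the Amh line, with circles for IP RNA and squares for total RNA, and 1 point for each array at time 0 and at 24h. In IP RNA every gene's 24h arrays lie below its time 0 arrays (Ccnb2 at 1355 and 1125 against 4212 and 4032 units), whereas the total RNA arrays at 24h overlap or lie above those at time 0 except for Nusap1, at 1085 and 1164 against 1304 and 1174.

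Of 15 measured genes of the APC/C list 2 fell, an activator and a partner enzyme. Cdc20, which activates the APC/C in mitosis, went from 1178 and 1068 units to 547 and 522 and fell by 1.07 ± 0.20 (limma adjusted p = 0.000371). Ube2c went from 2197 and 2023 to 808 and 589.8 and fell by 1.61 ± 0.15. The other 13, which include the subunits of the complex, were not called, and the list's median was 0.06. A difference between those 2 genes and the subunits was not itself tested.

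Kinetochore and spindle checkpoint genes fell for 10 of 22 measured members, and all 22 lay below 0 (median -0.98). Nuf2 and Ndc80, both of the complex that grips microtubules, went from 687 and 647 to 254 and 253 units and from 594 and 608 to 262 and 343 units (log2 -1.40 and -1.00). Ska3, which stabilises that grip, fell by 1.49 ± 0.17, and Knl1, the scaffold on which checkpoint proteins assemble, fell by 1.26. The checkpoint kinases Bub1 and Ttk had log2 differences of -1.18 and -1.03, Cenpa, the histone of the centromere, one of -1.04, and Spc25 one of -1.07. The shugoshins Sgo1 and Sgo2a, which protect centromeric cohesion, had -1.19 and -1.08. Each of these 10 had 24h arrays below its time 0 arrays.

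Of 20 genes for chromosomal passengers, condensin and cytokinesis 8 fell, and all 20 lay below 0 (median -0.91). Prc1, which bundles the microtubules of the spindle midzone, went from 1249 and 1138 units to 420.3 and 368, a log2 difference of -1.60 ± 0.20 (limma adjusted p = 1.18e-07). Its motor partner Kif4 had a log2 difference of -1.44, the condensin subunit Ncapg one of -1.26, and Ect2, the exchange factor that starts the cleavage furrow, one of -1.23. Cep55, Anln and Kif20a, all of cytokinesis, had -1.13, -1.05 and -1.04. Top2a, the topoisomerase that untangles sister chromatids, fell by 1.26 on the probe set used, which went from 2194 and 1999 units to 825 and 927, and differed by -0.15 on its other probe set.

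Spindle motors and microtubule factors had the lowest median of the 5 lists, -1.06, with 11 of 19 measured genes called lower. Nusap1, a microtubule stabiliser of the spindle, went from 1572 and 1403 units to 469 and 437 and fell by 1.71 ± 0.19 (limma adjusted p = 1.66e-08). Kif11, the motor that pushes the spindle poles apart, went from 1833 and 1634 to 654 and 695 and fell by 1.36 ± 0.19. Spag5, Kif15, Kif18b, Kif22, Ckap2, Kif2c, Dlgap5, Ckap2l and Hmmr had log2 differences of -1.47, -1.27, -1.25, -1.23, -1.15, -1.15, -1.09, -1.06 and -1.06. In all, 19 of the 37 mitotic calls held in each of 13 alternative settings, Ccnb2, Ccna2, Plk1, Aurkb and Ube2c among them.

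**Figure D2:**
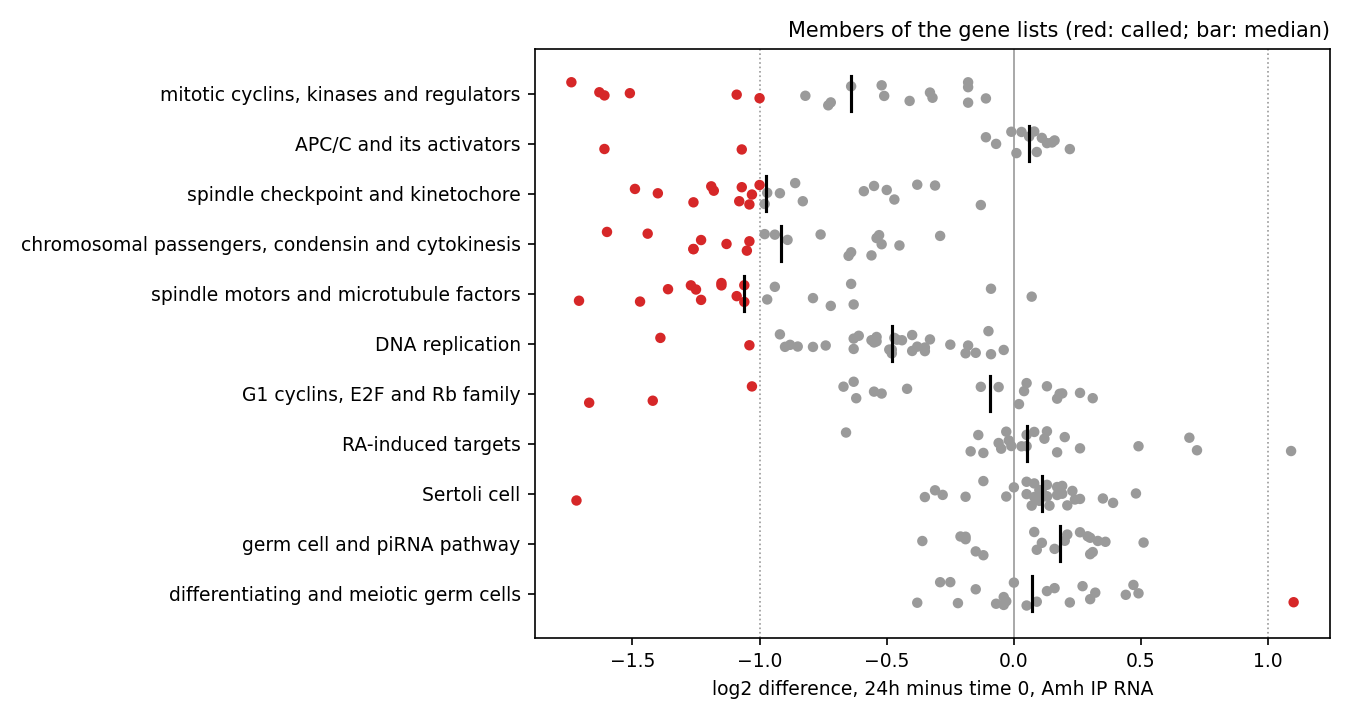
Log2 difference between 24h and time 0 in Amh IP RNA (x axis) for each measured member of 11 gene lists (rows), with called genes in red, a bar at each list's median and dotted lines at the 2-fold minimum. The lists of mitosis other than APC/C have medians between -1.06 and -0.64, the APC/C list sits at 0.06 with only Ube2c and Cdc20 far below, and the Sertoli and germ cell lists sit near 0.

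Of 34 measured genes of DNA replication 2 fell, and all 34 had a difference below 0 (median -0.48): Rrm2, a subunit of ribonucleotide reductase, fell by 1.39 ± 0.29 (limma adjusted p = 0.00184), and Mcm10, which helps load the replication machinery, fell by 1.04 ± 0.14. Pcna, the sliding clamp, went from 4293 and 4403 units to 3142 and 3099.7, a difference of -0.48 (adjusted p = 0.00434) that does not reach the 2-fold minimum. Among G1 cyclins, the E2F and the Rb family, 3 of 20 fell (median -0.10). E2f8 went from 684 and 664 units to 233 and 193 (log2 -1.67 ± 0.24) and E2f7 from 963 and 924 to 364 and 344 (log2 -1.42 ± 0.15); these are the 2 atypical E2F repressors, made in S phase. Rbl1, the pocket protein p107, fell by 1.03.

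Of 8 genes of the MuvB, B-Myb and FoxM1 group, which regulate mitotic genes, 0 were called at 24h by limma. At an unadjusted p below 0.05 there were 2 higher and 1 lower, and 4 of the 8 lay above 0 (median -0.01). Foxm1, the transcription factor of mitotic genes, missed the 2-fold minimum at -0.92 ± 0.16 (adjusted p = 0.000166, from 1302 and 1269.8 units to 654 and 707). Mybl2 differed by -0.33 (adjusted p = 0.542) and Lin54, the MuvB subunit that reads the CHR, by -0.27 (adjusted p = 0.566). On the other side of 0, the MuvB subunit Lin52 differed by 0.26 (adjusted p = 0.389) and Mybl1 by 0.30 (adjusted p = 0.688). Of 7 CDK inhibitors 1 was called, Cdkn3, a phosphatase acting on CDKs whose mRNA is itself made by dividing cells, which fell by 1.10 ± 0.24. No member of that list was called higher. In Amh total RNA 1 of the 7 was also called lower (lowest log2 difference of the list -1.05). Differences in change between IP and total RNA (lowest -0.58) or between Amh and Stra8 IP RNA (lowest -0.91) were called for no member.

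The largest falls outside the lists were named by size, and what is known of each was added after its values were seen. Depdc1a, a mitotic regulator, went from 731 and 604 units to 191 and 202 (log2 -1.76 ± 0.24; its other probe set gave -1.75), Mki67, the source of the Ki-67 antigen, from 2442 and 2119 to 874 and 706 (log2 -1.53 ± 0.21), and Iqgap3, a scaffold of proliferating cells, from 888 and 842 to 257 and 269 (log2 -1.72 ± 0.22). Neil3, a DNA glycosylase of S phase, fell by 1.66 ± 0.18 and Pbk, a mitotic kinase, fell by 1.48 ± 0.16. The replication-dependent histone H2ac4 had the largest fall of the 90 (log2 -1.97 ± 0.37, limma adjusted p = 0.000622), from 677 and 602 units to 162 and 164. Of 26 measured clustered histone genes, a group formed after their values were seen, 6 fell, 0 rose and 24 lay below 0 (median -0.45), but these genes are near-identical copies whose probes may read each other.

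Other falling genes are not genes of the cell cycle. Hsd17b1, a steroid dehydrogenase of the Sertoli cell list, went from 4266 and 4202 units to 1110.4 and 1484, a log2 difference of -1.72 ± 0.32 (limma adjusted p = 0.000374, n = 2 each), and was the only called gene of 31 on that list, whose median was 0.11. It had been lower still at 12h, at 479 and 523 units, and the step from 12h to 24h was a rise of 1.36 ± 0.32 (adjusted p = 0.00218). Mmp2, a gelatinase that remodels basement membrane, went from 3589 and 3297 units to 1185 and 1454 and fell by 1.39 ± 0.21, 1 of 24 genes called on the list of extracellular matrix and basement membrane (median -0.02). Acvrl1, a type I receptor of the TGF-beta family, went from 1255 and 1249.9 units to 577 and 639 and fell by 1.04 ± 0.14. In the Sertoli list Amh itself differed by -0.35 (adjusted p = 0.758), Fshr by 0.00, and Wt1 by 0.19.

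Of the 17 genes called higher, Kit was the only one on any list. Tmem255a, a membrane protein, rose from 314 and 391 units to 2809 and 1817, the largest change in the comparison (log2 2.69 ± 0.50, 6.45-fold, limma adjusted p = 0.00043, n = 2 each). Tpbgl, a leucine-rich repeat membrane protein, rose from 469.7 and 502 to 2489 and 1930.3 (2.17 ± 0.34), and Esyt3, which tethers the endoplasmic reticulum to the plasma membrane, from 586 and 687 to 2845 and 1947 (1.89 ± 0.37). Both 24h arrays of each of these genes lay above both time 0 arrays, by more than their own spread. Garem1, an adaptor of growth factor receptors, rose by 1.25 ± 0.22, and Uchl1, a deubiquitinating enzyme, by 1.22 ± 0.25. St8sia2, which builds polysialic acid, rose by 1.19, and Lpar3, a receptor of lysophosphatidic acid, by 1.18. Wfdc18, Stac2, Phactr1, Slc41a2, Nup62cl, Parvb, Cacng5 and Nags rose by between 1.15 and 1.03. The 17 higher and 90 lower calls became 4 and 80 without Amh IP 24h replicate 1 and 16 and 78 without its replicate 2. They became 7 and 73 without Amh IP 0 replicate 1 and 14 and 90 without its replicate 2.

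Kit, the receptor tyrosine kinase of differentiating spermatogonia, rose from 235 and 248 units to 550 and 486 in Amh IP RNA (1.10 ± 0.29, limma adjusted p = 0.0259). In Amh total RNA it stood at 722 and 697 units and then 1780.1 and 1544 (a rise of 1.22 ± 0.29), and in Stra8 IP RNA at 1293 and 929.5 and then 3854 and 4047 (a rise of 1.85 ± 0.29). Its level in Amh IP RNA was thus below that in total RNA at both times, with log2 differences of -1.56 at time 0 and -1.68 at 24h. The Kit call was lost without each one of the 4 arrays (adjusted p from 0.116 to 0.313 in limma) and under quantile normalization, where 0.97 missed the 2-fold minimum. Other germ cell genes had small differences, 0.29 for Ddx4 and 0.33 for Dazl, and 0 of 20 members of the germ cell and piRNA list were called by limma (2 at an unadjusted p below 0.05). The part of germ cell RNA carried into the IP in the Kit result was not tested.

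**Figure D3:**
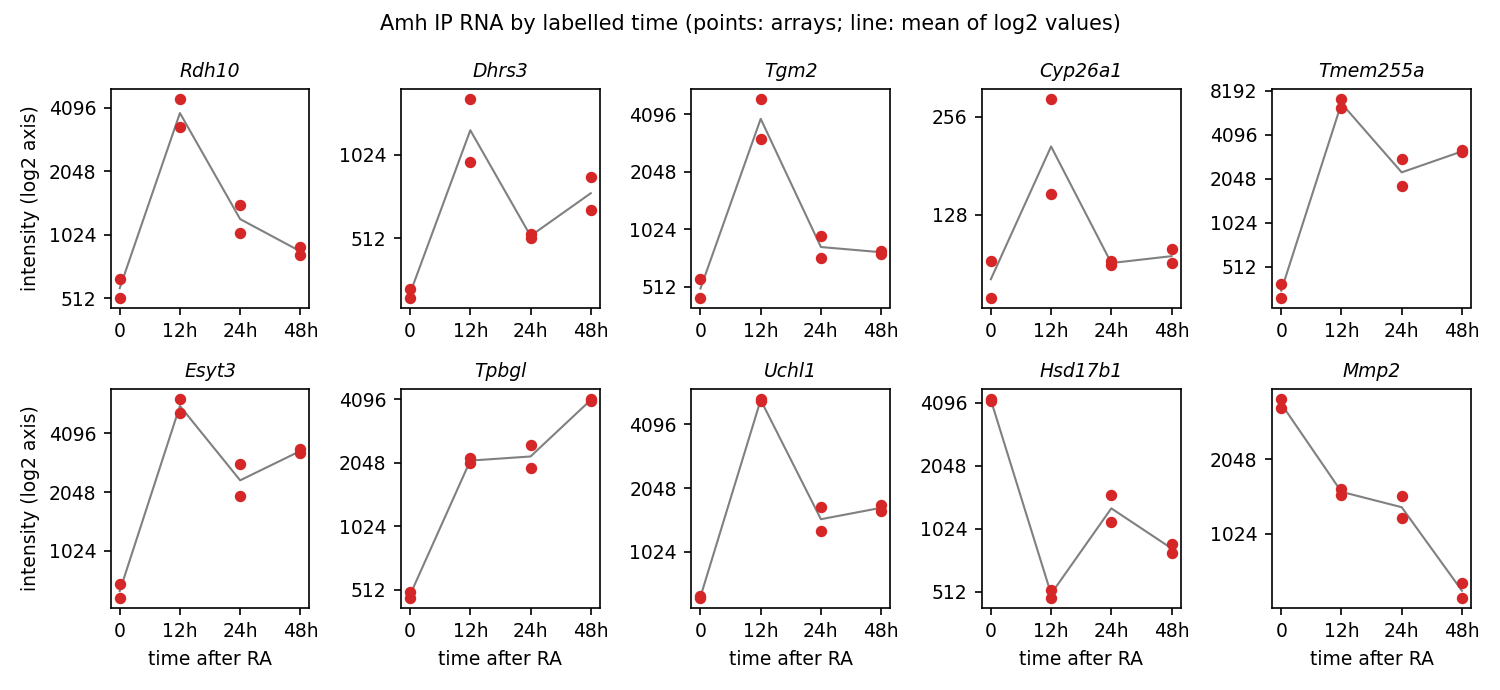
RMA intensity (units, log2 axis, a separate scale in each panel) of 10 genes in Amh IP RNA at 0, 12h, 24h and 48h after RA, with 1 point for each array and a line through the means of the log2 values. Rdh10, Dhrs3, Tgm2 and Cyp26a1 peak at 12h and lie lower at 24h, Tmem255a, Esyt3 and Uchl1 keep part of their 12h rise, Tpbgl stays up, and Hsd17b1 and Mmp2 lie below their time 0 arrays at each later time.

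Genes known to be induced by RA were not called at 24h: of 22 measured RA-induced targets 0 passed in limma (median 0.05; 4 had an unadjusted p below 0.05), and 0 of 16 genes of RA synthesis, storage and transport did (6 unadjusted). The highest member, Rdh10, which makes retinal from retinol, stood at 517 and 633 units at time 0 and 1417 and 1042 at 24h (log2 1.09 ± 0.49, adjusted p = 0.396). At 12h the same gene had stood at 4498 and 3307 units. Tgm2, a transglutaminase induced by RA in many cells, had 450.2 and 559.8 units at time 0, rose to 4929 and 3052 (12h) and had 942 and 727 left at 24h; the step from 12h to 24h was a log2 difference of -2.23 ± 0.25 (adjusted p = 3.42e-09). Dhrs3, which turns retinal back to retinol, stood at 313 and 336, then 1625 and 967, then 529 and 515, and Lrat, which esterifies retinol for storage, at 157 and 136, then 590 and 329, then 142 and 180.1. Of the 22 targets, 5 were called higher at 12h than at time 0, where 0.868% of all genes were, and 4 were called lower at 24h than at 12h, where 0.617% were. The spread between the 2 arrays at 12h was wide for these genes, and the 24h arrays of Cyp26a1, the RA-degrading enzyme, at 92 and 89.6 units lay within the spread of time 0, at 92.2 and 71.1.

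Other programmes of the Sertoli cell gave no calls at 24h. None of the lists for Sertoli maturation and hormone response (17 measured genes), cell junctions and the blood-testis barrier (21, median 0.05), niche ligands (24, -0.07), Notch (20, -0.04), glycolysis and lactate supply (18, 0.07), cholesterol synthesis (20, 0.06), retinoid receptors and co-repressors (13), the unfolded protein response (20, 0.08), p53 targets (18, 0.01), interferon response (16, -0.08), immediate early genes (16), ribosomal proteins (20, -0.06) or the respiratory chain (23, 0.10) held a called gene. Lists for undifferentiated spermatogonia (23, -0.09), Leydig (10, 0.09), peritubular myoid (12, -0.01), macrophage (14, -0.04), endothelial (12, 0.04) and erythroid cells (3, -0.17) held none either by limma, and the list of differentiating and meiotic germ cells held Kit alone among 22 (median 0.07). In each of these lists 0 to 5 members had an unadjusted p below 0.05, and a p that misses the threshold with 2 arrays a group does not show that these genes stayed the same.

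To ask whether the whole testis showed the same change, total RNA of the same line was compared over the same step. Of the 95 mitotic genes 0 were called in Amh total RNA by limma, and their median was 0.06 (11 higher and 4 lower at an unadjusted p below 0.05). Over all genes 29 (0.145%) were called there, 20 higher (0.1%) and 9 lower (0.0451%). Ccnb2 stood at 3644 and 3499 units and then 3740 and 3329 in total RNA, and Plk1 at 1796 and 1601 and then 2091 and 2251. The difference between the IP change and the total change, tested as an interaction, was called for 64 genes (0.321%), 2 with the higher change in IP RNA (0.01%) and 62 with the lower (0.311%), and 41 of those 62 were among the 95 mitotic genes. The interaction was -1.72 ± 0.22 for Ccnb2 (limma adjusted p = 1.14e-06), -1.97 ± 0.37 for Plk1, -1.76 ± 0.19 for Aurkb, -1.71 ± 0.21 for Ube2c and -1.68 ± 0.28 for Prc1. The number of interaction calls was 35 without Amh IP 0 replicate 1 and 38 without Amh total 0 replicate 2.

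The levels of mitotic genes in IP and in total RNA were also set side by side. At time 0, 46 of the 95 genes were higher in IP than in total RNA and 49 lower. Their median was -0.03, against 0.11 over all genes. By limma 0 of the 95 were called (17 higher and 9 lower at an unadjusted p below 0.05). Of all genes 3.83% were called, 0.426% higher and 3.41% lower. At 24h the median of the 95 was -0.95, against 0.08 over all genes, and 46 of 95 were called lower in IP RNA. Of all genes 5.84% were called at 24h, 1.44% higher and 4.39% lower. Mean log2 intensity over the 95 genes was 10.09 and 10.01 in IP RNA at time 0 and 9.30 and 9.30 at 24h, and in total RNA 10.06 and 10.01 and then 10.12 and 10.14. The total also holds dividing germ cells and other somatic cells, and their share of its mitotic mRNA was not tested.

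**Figure D4:**
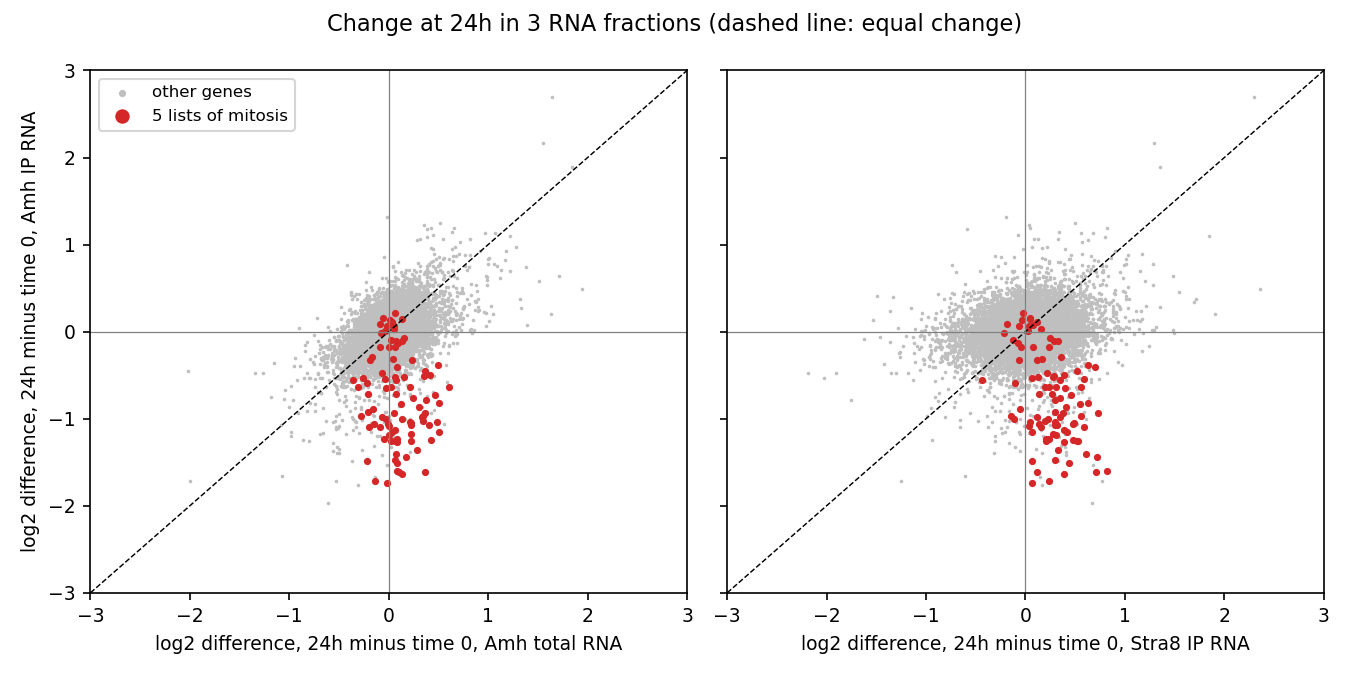
Log2 difference between 24h and time 0 in Amh IP RNA (y axis) against the same difference in Amh total RNA (left) and Stra8 IP RNA (right), 1 point for each gene, with the 95 mitotic genes in red and a dashed line of equal change. Most red points hang below the line, 84 of 95 on the left and 85 on the right, with medians of -0.82 on the y axis and 0.06 and 0.27 on the x axes.

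Some calls in total RNA were of genes also called in IP RNA. Hsd17b1 fell by 2.00 ± 0.32 in total RNA, from 2544 and 2355 units to 533 and 699, and Neil3 fell by 1.07, while Esyt3 rose by 1.84 ± 0.37 and Tpbgl by 1.55 ± 0.34, with interactions of 0.28, -0.59, 0.06 and 0.62, none of which was called. Of the 17 genes called higher in IP RNA 4 were also called higher in total RNA, and of the 90 called lower 3 were also called lower. Stra8, the gene of meiotic commitment, rose in total RNA from 118 and 182 units to 644 and 494 (1.94 ± 0.38, limma adjusted p = 0.00315) and differed by 0.49 in Amh IP RNA, with an interaction of -1.46 (adjusted p = 0.684). Dlx1 and Tbx1, transcription factors of the homeobox and T-box families, rose by 1.71 and 1.63 in total RNA, and both also stood higher at 24h in Stra8 IP RNA. Six4, a homeobox factor, Onecut2 and Tmem63c had log2 differences of -1.34, -1.18 and -1.26. Prm1, a sperm protamine, fell by 2.02, from time 0 arrays at 1031 and 414 units that differ widely. The 29 total RNA calls were 8 without Amh total 0 replicate 1, 18 without its replicate 2, and 13 and 15 without Amh total 24h replicates 1 and 2.

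In germ-cell-tagged RNA no mitotic gene was called. Of the 95, 0 were called in Stra8 IP RNA at 24h by limma (31 higher and 1 lower at an unadjusted p below 0.05), and 81 lay above 0 (median 0.27). Of all genes 0.441% were called there, 0.211% higher and 0.231% lower. Ccnb2 stood there at 4783 and 4939.9 units at time 0 and at 5000.4 and 5195 at 24h, and Plk1 at 3114 and 2859.6 and then 5114 and 4628. The difference between the 2 lines in their change was called for 178 genes (0.893%), 44 with the higher change in Amh IP RNA (0.221%) and 134 with the lower (0.672%), and the split was 84 and 125 under median centring. Of the 95 mitotic genes 52 were called, all with the lower change in Amh IP RNA: -2.32 ± 0.37 for Plk1 (limma adjusted p = 4.81e-05), -2.42 ± 0.28 for Prc1, -1.81 ± 0.22 for Ccnb2 and -1.95 ± 0.18 for Ccna2. Mki67, H2ac4 and Iqgap3 had interactions of -2.21, -2.64 and -2.49. The Sertoli cell list in Stra8 IP RNA averaged 9.76 and 10.22 at time 0 and 9.51 and 10.20 at 24h, so the 2 arrays of each group differed in their somatic signal, and the part of this in the interaction was not tested.

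Of the 5 genes with the largest higher change in Amh IP RNA 4 had fallen in Stra8 IP RNA. Ddit4, an inhibitor of mTORC1 signalling, stood at 2710.2 and 2848 and then 2963 and 3139 units in Amh IP RNA but at 2826 and 2596 and then 934 and 943 in Stra8 IP RNA (interaction 1.66 ± 0.17, limma adjusted p = 1.53e-09). Six4 and Mpzl2 had interactions of 1.72 ± 0.27 and 1.90 ± 0.33 and log2 differences of -2.19 and -1.49 in Stra8 IP RNA, and Hmgn5, a nucleosome-binding protein, had one of 1.72 ± 0.35 and fell by 1.33. Lpar3 had an interaction of 1.76 ± 0.34, a rise of 1.18 in Amh IP RNA and a difference of -0.59 in Stra8 IP RNA (adjusted p = 0.149).

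The position of 24h in the course was read from the neighbouring times. Amh IP arrays labelled 4h were in the fit but were not compared here. Without these and the Amh arrays labelled 4d, the calls between 24h and time 0 were again 107. Mean log2 intensity over the 95 mitotic genes in Amh IP RNA was 10.09 and 10.01 at time 0, 9.50 and 9.51 at 12h, 9.30 and 9.30 at 24h, then 8.91 and 8.96 at 48h, so each later pair of arrays lay below the one before. Against the same time 0 arrays 6 of the 95 were called lower at 12h, 37 at 24h and 53 at 48h. Of all genes 1.55% were called at 12h (0.868% higher, 0.682% lower) and 1.22% at 48h (0.221% higher, 1% lower). Ccnb2 stood at 2414 and 2582 units at 12h and at 308 and 354 at 48h, and Plk1 at 1300.4 and 1384 and then 337 and 409. These 3 comparisons share the time 0 arrays, so their counts are not independent of one another.

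The steps on either side of 24h, which do not use time 0, gave fewer calls among mitotic genes. Of all genes 0.617% were called lower from 12h to 24h and 0.181% from 24h to 48h. From 12h to 24h 2 of the 95 were called lower, Ccnb2 (a log2 difference of -1.02 ± 0.15, limma adjusted p = 3.46e-06) and Nuf2 (a log2 difference of -1.14 ± 0.20), with a list median of -0.20. From 24h to 48h 3 were called lower, with a median of -0.35: Ccnb2 fell by a further 1.90 ± 0.15 (adjusted p = 1.99e-12), Ccna2 fell by 1.24 and Plk1 fell by 1.10. Depdc1a, outside the lists, fell by 1.43 ± 0.24 to 71.9 and 73.6 units at 48h. For replication genes the mean log2 intensity was 9.68 and 9.68 at time 0, 9.16 and 9.11 at 12h, 9.15 and 9.17 at 24h, then 9.17 and 9.21 at 48h, and 0 of 34 were called by limma in either step (8 and 2 at an unadjusted p below 0.05), with medians of 0.04 and 0.02.

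**Figure D5:**
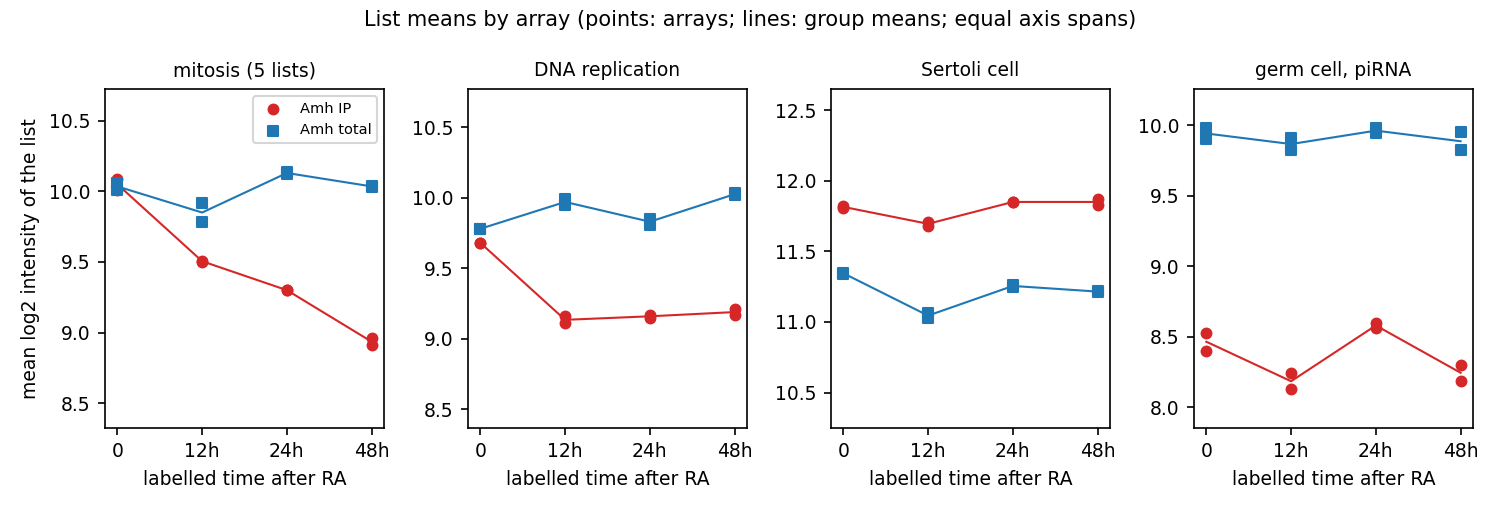
Mean log2 intensity of 4 gene lists (y axis, spans of equal length) against the labelled time after RA, with 1 point for each array of Amh IP RNA (circles) and Amh total RNA (squares) and lines through the group means. The mitosis mean in IP RNA drops from 10.09 and 10.01 to 8.91 and 8.96 while the total keeps between 9.78 and 10.14, the replication mean drops by 12h and then stays, and the Sertoli list shows no such drop.

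Many other genes moved between 12h and 24h, 224 in all (1.12%), 101 higher (0.507%) and 123 lower (0.617%), and several of the largest lay nearer to their time 0 level at 24h than at 12h. Shisa6, a transmembrane regulator of the Shisa family, stood at 2695 and 2594 units at time 0, at 193 and 243 at 12h and at 2036 and 2497 at 24h (step of 3.38 ± 0.39, limma adjusted p = 9e-09). Drd4, a dopamine receptor, Pcsk6, a proprotein convertase, and Hsd17b3, a testosterone-forming enzyme, rose by 2.01, 1.94 and 1.93 in this step. Dkk3, a secreted protein of the Dickkopf family, stood at 207 and 229 units, then 1312 and 1139, then 198 and 218, and Scin, Capn2 and S100z had differences of -2.24, -2.15 and -2.12 in this step after standing higher at 12h than at time 0. The time 0 and 24h arrays of Dkk3 overlap. From 24h to 48h 36 genes were called, 0 higher and 36 lower (0.181%), and the count was 19 and 22 without Amh IP 24h replicates 1 and 2 and 14 without Amh IP 48h replicate 1.

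Some marker lists of other cells moved with these steps and others did not. The germ cell and piRNA list averaged 8.24 and 8.13 at 12h, 8.56 and 8.60 at 24h, then 8.19 and 8.30 at 48h in Amh IP RNA. The list of differentiating and meiotic germ cells averaged 7.76 and 7.70, then 7.90 and 7.87, then 7.63 and 7.68. The endothelial list averaged 7.89 and 7.89, then 8.19 and 8.18, then 7.96 and 8.00, and the Leydig list 8.50 and 8.48, then 9.13 and 9.00, then 8.87 and 8.97. The lists of macrophages (7.31 to 7.51), peritubular myoid cells (8.45 to 8.51) and undifferentiated spermatogonia (8.35 to 8.43) did not follow that course over the same 6 arrays, and the erythroid list was lowest at 24h. Of the germ cell and piRNA list 0 of 20 genes were called higher by limma from 12h to 24h and 2 lower from 24h to 48h. As examples picked after their values were seen, Ddx4, the germ cell helicase, stood at 498 and 549.7 units at time 0, 393 and 304 at 12h, 642 and 642 at 24h, then 276 and 358 at 48h in Amh IP RNA. Cdh5, the endothelial cadherin, stood at 734 and 712, then 511 and 428, then 749 and 743, then 421 and 467. Among the largest calls from 24h to 48h were Usp26, a germ cell ubiquitin protease, and the small RNAs Rpph1 and Snord57, which are made in all cells (log2 -1.34, -1.40 and -1.53). The part of other cells' RNA in the steps on either side of 24h was not tested.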

How the data were processed

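RNA was measured on 1-colour gene-level Affymetrix arrays. Per the labels' protocols, RNA was purified with RNeasy columns, amplified (Ovation V2) and labelled (Encore Biotin). The authors deposited RMA-summarised intensity, not logged. The method's name comes from the submitters' processing notes, without its settings or which arrays it was run over. Their smallest values were 25.1 to 26.3 units, so differences of dim genes are compressed, and precision is limited by 2 arrays a group.

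Values were put on the log2 scale and scaled no further. Of 28853 probe sets 23410 were listed with a gene, 1621 of them with several, which were left out, and 99.6% of the others matched RefSeq by gene number. The probe set with the highest mean stood for each of 19938 genes. A limma 3.58.1 model (R 4.3.3) with a mean for each of 35 groups over 77 arrays and moderation with an intensity trend gave 6 planned two-sided comparisons, and 5 others (12h and 48h against time 0, the Stra8 line, and IP against total at time 0 and 24h) are given beside them. The fit was checked on simulated data, which cannot show whether the arrays of a group vary as separate animals would. Named genes are the 20 largest called differences in each direction with arrays that do not overlap (5 in the other comparisons), predicted symbols left out, every called member of 34 lists and up to 5 others from each. For an interaction, overlap was checked only between the Amh IP arrays at 24h and time 0. Genes, lists and motifs were chosen with earlier results of these data known. Replicate numbers did not pair times in the Amh line. Of 5 pairs of groups 1 passed a residual correlation of 0.1, Stra8 IP RNA at 0 and 24h (0.49), which enters the comparison between the lines. Replicate numbers also paired IP with total RNA (7 of 7, from 0.11 to 0.58). The main fit used no pairing. Alternatives covered the fold minimum, scaling, probe sets, dim genes, weights, arrays fitted, the replicate block and each array left out.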

Additional observations from a re-analysis of the deposited data

Results flagged for a closer look

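The change of 64 genes differed between IP and total RNA of the Amh line by the interaction test. Prm1 had the higher change in IP RNA (1.57); its total RNA arrays at time 0 stood at 1031 and 414 units, and without Amh total 0 replicate 1 its interaction was 0.91 and not called. Plk1 (-1.97), Aurkb (-1.76), Ccnb2 (-1.72), Ube2c (-1.71) and Prc1 (-1.68) had the lower change in IP RNA.

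Between Amh and Stra8 IP RNA the change of 178 genes differed by the interaction test. It was higher in the Amh line for Mpzl2 (1.90), Lpar3 (1.76), Hmgn5 (1.72), Six4 (1.72) and Ddit4 (1.66), and lower for H2ac4 (-2.64), Iqgap3 (-2.49), Prc1 (-2.42), Plk1 (-2.32) and Mki67 (-2.21). Groups of 2 arrays are too small to search for arrays that stand apart, so only differences between groups are given.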

How the results depend on the processing

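None of the 107 genes called at 24h reversed its direction in any of 13 alternatives. Several of these could not reverse one, because they leave the log2 difference itself unchanged. They are no fold minimum, dim genes left out, array weights, fits to other sets of groups and the replicate block. Dropping the fold minimum can also lose no call. Of the 107, 51 (47 lower and 4 higher) stayed called in every alternative that held them. Cntn4, Ky and Gm10452, left out with the dim genes, were held by 12. With no 2-fold minimum the calls grew from 107 to 342 at 24h, from 37 to 58 for mitotic genes, from 29 to 124 in Amh total RNA, from 178 to 603 between the lines, from 224 to 2781 for 24h against 12h and from 36 to 972 for 48h against 24h, since that rule admits small differences. Quantile normalization gave 77 calls (11 higher, 66 lower) and 27 mitotic genes, and median centring 95 and 32. With each array left out in turn the counts were 80 to 104 at 24h, 30 to 39 for mitotic genes, 8 to 18 in total RNA, 35 to 53 for IP against total and 14 to 30 for 48h against 24h; between the lines and for 24h against 12h they stayed within 1.5 times the full count. Fewer arrays enter each of these fits. A group left with 1 array is assumed to vary like the others. With the replicate number as a replicate block the counts were 108 at 24h, 37 for mitotic genes, 35 in total RNA, 77 for IP against total, 201 between the lines, 230 and 41, and of the 107 calls only Uchl1 (1.22) was lost. The mean of probe sets took Top2a to -0.70. Signal near the floor limits what can be seen of dim genes such as Cyp26a1.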

Other observations

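Nr4a1, an orphan nuclear receptor and immediate early gene, stood at 1323 and 1859 units in Amh IP RNA at time 0, at 508 and 528 at 12h, at 782 and 779.7 at 24h and at 620.4 and 745 at 48h. The difference at 24h was -1.01 ± 0.36 (limma adjusted p = 0.19) and was not called, while the difference at 12h was -1.60 (adjusted p = 0.00113). In Amh total RNA the arrays stood at 1128 and 1423 units at time 0 and at 1488 and 1087 at 24h, which overlap.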
